A study of Danio rerio with 4 samples.

Results

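The mitochondrial ribosomal protein genes of the zebrafish were examined in hearts of ccm2 mutant and wild-type (WT) embryos. The members are every gene whose symbol on the array starts with mrpl or mrps, and the symbol also gave the subunit. No measured value decides membership, although the family was picked with earlier results of these data known. The array held 65 such genes among 14434 named genes. All 65 passed the filter on dim probes, which 11526 of the named genes passed.

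Mitochondria carry their own ribosome, the mitoribosome, which translates only the few proteins encoded in mitochondrial DNA. Those proteins are core subunits of the respiratory chain and of ATP synthase, so the mitoribosome is needed for oxidative phosphorylation. Its RNA is made inside the organelle, whereas all of its proteins are encoded in the nucleus, made in the cytosol and imported. Some of these proteins have counterparts in the bacterial ribosome and others were added during mitochondrial evolution. Heart muscle is rich in mitochondria, and inherited defects of several human mitoribosomal proteins cause cardiomyopathy.

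Hearts were dissected by hand at 72 hours post fertilization from WT embryos and from embryos with the m201 mutation of ccm2, and no other allele is named for either group. Ccm2 is a scaffold of the cerebral cavernous malformation complex and is known for its role in the endothelium and endocardium, so the comparison asks how the heart's RNA differs where this protein is mutated. Each group had 2 samples of pooled hearts, each read on its own single-colour array, and all 4 arrays lay on 1 slide. The sources do not say whether the pools came from separate clutches, so the p-values measure only the spread between these samples, which may be technical. The descriptions of both mutant samples also mention overexpression of Bmp2b, which their titles and genotypes do not name, and which of these labels holds is not known.

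On each array 54.0% to 55.9% of features exceeded background clearly, and 0 were saturated. The WT pair correlated at r = 0.973 over tested probes, the mutant pair at 0.975, and WT with mutant arrays at 0.915 to 0.924. The probe of ccm2 read 5.45 and 5.79 on the WT arrays and 5.16 and 4.92 on the mutant arrays, in log2 signal scaled to each array's 75th percentile. That difference of -0.58 ± 0.22 (SE, n = 2 against 2) did not pass the test, with a limma adjusted p of 0.167. Of the 15 cardiomyocyte markers on the array, 13 were well above background on each array. The 13 cardiomyocyte markers tested had a median difference of -0.18 and went both ways. Both mutant arrays lay below both WT arrays in 5 and above in 2, against 35.2% and 32.6% of all tested genes. The groups overlapped in 6. The values ran from -1.86 in pln1, a regulator of calcium uptake, to 0.88 in myh6, the atrial myosin heavy chain. Only pln1 was called (limma adjusted p = 0.0143). That call was lost when any single array was left out, as were most or all calls over all tested genes.

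Most mitochondrial ribosomal protein genes had lower values in the mutant hearts. Among the 65 genes, 18 were called lower in mutants at a limma adjusted p under 0.05 and 0 were called higher, which is 27.7% of the genes against 9.03% called lower and 8.1% called higher over all 11526 tested genes. The log2 difference, mutant minus WT, was below 0 in 63 of the 65 genes, against 52.4% of all genes. Its median over the 65 genes was -0.75, a 1.68-fold lower level, with an interquartile range of -0.97 to -0.53. Over all tested genes the median was -0.04 with an interquartile range of -0.50 to 0.43. The genes therefore shared a shift of moderate size and not a few large changes: 15 of them were at least 2-fold lower, or 23.1%, against 12.5% of all tested genes.

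The arrays showed the same order in nearly all of these genes. In 59 of the 65 genes both mutant arrays lay below both WT arrays, in 6 the groups overlapped, and in 0 both mutant arrays lay above both WT arrays. Over all tested genes the groups were separated downward in 35.2% and upward in 32.6%. The medians of the 65 genes were 10.65 and 10.55 on the WT arrays and 10.09 and 9.91 on the mutant arrays, where the medians of all genes lay between 7.75 and 7.83. Counted by the unadjusted p, 46 of the genes were past 0.05, all of them lower, against 18.8% of all tested genes. The adjusted calls rest on all 4 arrays. They were lost when any 1 array was left out, as were most or all calls over all tested genes. Without WT 1, WT 2, mutant 1 or mutant 2 the median difference stayed at -0.72, -0.80, -0.90 and -0.64. No filter on dim probes left 1 call, or 1.54% of the 65 genes, below the 4.21% of all genes called lower in that fit. A term for the sample number left 0, against 4.12% of all genes called lower.

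**Figure D1:**
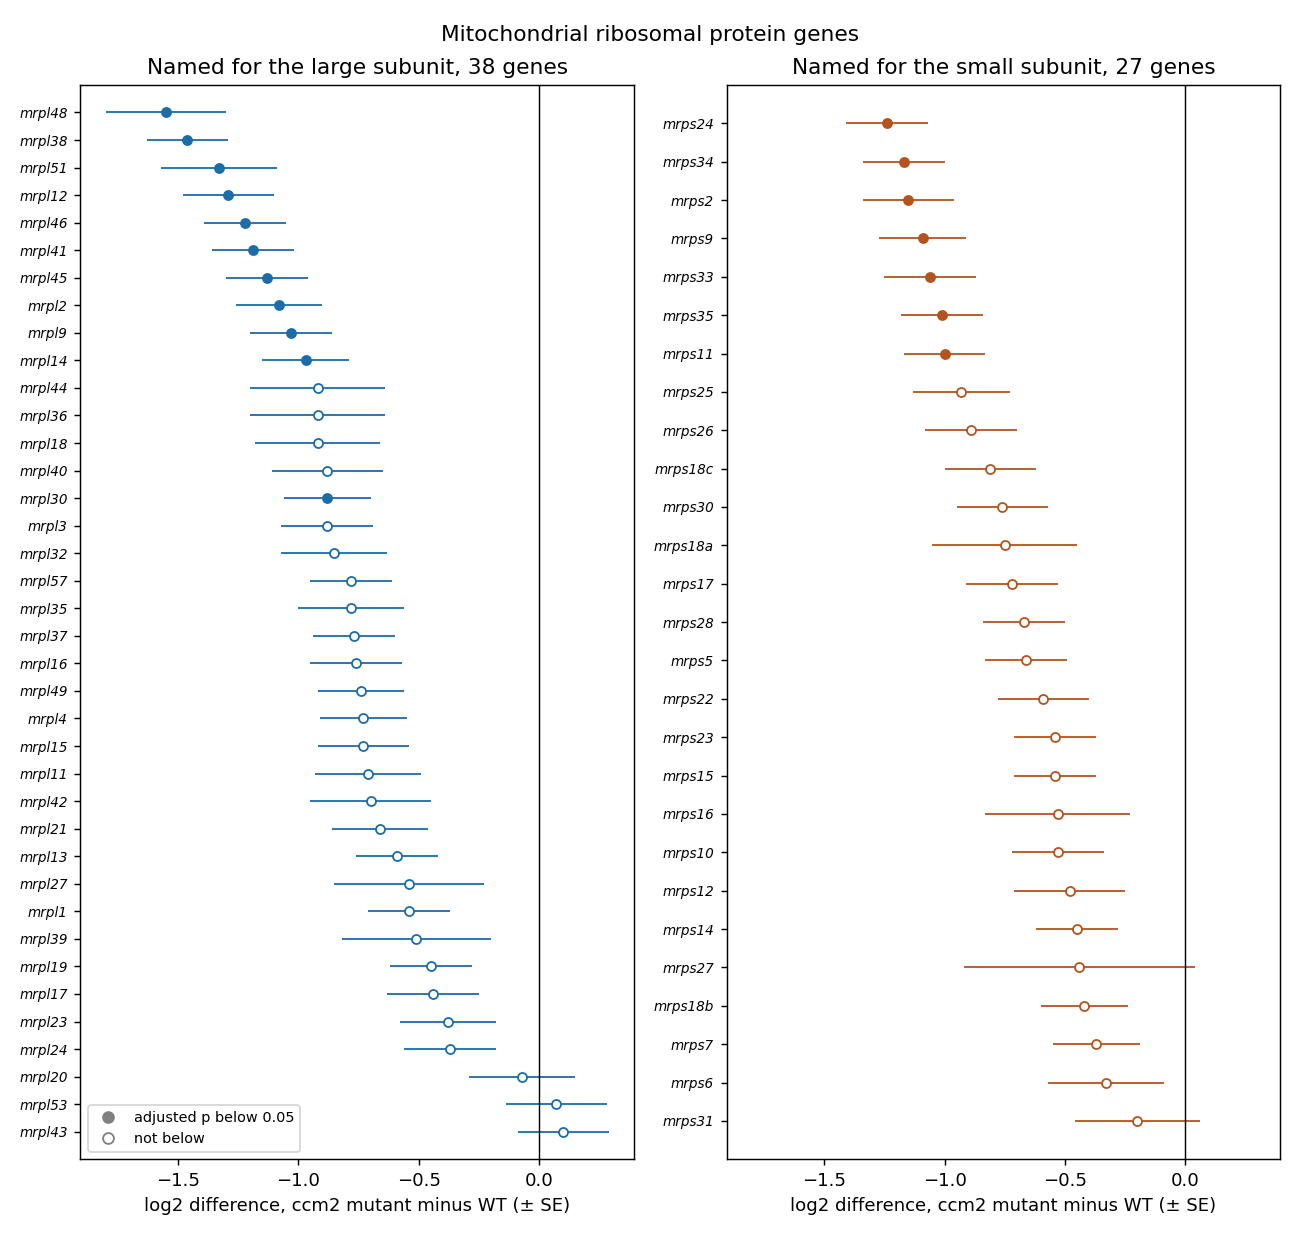
Log2 difference, mutant minus WT, with its standard error for each of the 65 genes, split by the subunit in the symbol, from 2 WT and 2 mutant arrays. Filled points passed a limma adjusted p of 0.05; 63 points lie left of 0, and the filled points run from -1.55 to -0.88.

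Among the 38 genes named for the large subunit, which joins amino acids into the new chain, 11 were called lower. That is 28.9%, against 9.03% of all tested genes. The median difference of the 38 genes was -0.77, with a range of -1.55 to 0.10. The gene with the lowest difference was mrpl48, a protein that bacterial ribosomes lack. Its brightest probe read 8.79 and 8.59 on the WT arrays and 7.39 and 6.90 on the mutant arrays. The mutant arrays were both below the WT arrays, and the difference was -1.55 ± 0.25 (SE, n = 2 against 2; limma adjusted p = 0.0333), or 2.92-fold lower. A dimmer probe of mrpl48 did not show this and is described further on. For mrpl38, whose protein lies at the central protuberance of the large subunit, the values were 13.37 and 13.44 in WT and 11.98 and 11.90 in mutant hearts. It was 2.76-fold lower (limma adjusted p = 0.018), the smallest adjusted p among the 65 genes, and a second probe of mrpl38 fell by 1.09 (limma adjusted p = 0.0291).

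The stalk protein gene mrpl12, which encodes the mitochondrial form of bacterial L7/L12 and helps to recruit translation factors, read 11.97 and 11.76 in WT and 10.62 and 10.51 in mutant hearts. Its difference was -1.29 ± 0.19 (SE, n = 2 against 2; limma adjusted p = 0.0263). All 3 of its probes were called lower, the other two with differences of -1.23 and -2.62. The direction was thus shared by its probes while the size was not. Mrpl45, which in mammals sits at the polypeptide exit and ties the mitoribosome to the inner membrane, had a gene that read 10.92 and 10.84 in WT and 9.81 and 9.69 in mutant hearts. It was 2.19-fold lower (limma adjusted p = 0.0298). Mrpl2, a protein next to the peptidyl transferase centre with a bacterial counterpart, had its gene at 13.60 and 13.37 in WT and 12.42 and 12.40 in mutant hearts, 2.11-fold lower (limma adjusted p = 0.0359).

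The other large subunit genes called were mrpl51, mrpl46 and mrpl41, which encode proteins absent from bacteria, and mrpl9, mrpl14 and mrpl30, which encode counterparts of bacterial proteins. Their differences were -1.33, -1.22, -1.19, -1.03, -0.97 and -0.88 in that order. Both mutant arrays were below both WT arrays in all 6, which passing the test already favours and which adds nothing to the calls. The spread within a group was widest in mrpl51, which read 7.58 and 7.11 in WT and 5.95 and 6.09 in mutant hearts. The call of mrpl30 was the closest to the threshold, at a limma adjusted p of 0.0492. Just outside it lay mrpl3, with a difference of -0.88 and a limma adjusted p of 0.0581, and among the brightest probes mrpl37, with -0.77 and 0.0604. Of these, mrpl3 was picked after its values were seen, since defects of its human counterpart cause cardiomyopathy. For the same reason mrpl44 and mrps22 are given, with differences of -0.92 ± 0.28 and -0.59 ± 0.19 (SE, n = 2 against 2) and limma adjusted p of 0.109 and 0.12.

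Among the 27 genes named for the small subunit, which reads the messenger RNA, 7 were called lower. That is 25.9%, against 9.03% of all tested genes. The median difference of the 27 genes was -0.67, with a range of -1.24 to -0.20. All 27 differences were below 0. In mammalian mitoribosomes the proteins of mrps18a and mrps30, named here for that reason alone, belong to the large subunit, and neither gene was called. The lowest difference was that of mrps24, whose protein is the mitochondrial form of bacterial S3 at the messenger RNA entry. It read 12.37 and 12.21 in WT and 11.06 and 11.05 in mutant hearts. This was 2.35-fold lower (limma adjusted p = 0.0257), and its second probe fell by 1.28 (limma adjusted p = 0.0228).

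The gene of Mrps34, a protein that bacteria lack and that stabilizes the small subunit in mammals, read 13.33 and 13.44 in WT and 12.28 and 12.16 in mutant hearts. Its difference was -1.17 ± 0.17 (SE, n = 2 against 2; limma adjusted p = 0.0284), and its second probe fell by 1.22 (limma adjusted p = 0.0291). Both probes of mrps34 therefore gave nearly the same size. The genes of the bacterial-type proteins Mrps2, Mrps9 and Mrps11 had differences of -1.15, -1.09 and -1.0. Those of Mrps33 and Mrps35, which bacteria lack, had -1.06 and -1.01. All 5 were called, and in all 5 the mutant arrays were below the WT arrays, which again adds nothing to the calls. The signal of mrps11 was the dimmest of the 65, at 3.91 and 3.83 in WT and 2.84 and 2.91 in mutant hearts, and only 1 of the 2 mutant arrays was well above background for it. The other 64 genes were well above background on all 4 arrays. Among them mrps33 was dim, at 4.98 and 4.85 in WT and 3.96 and 3.75 in mutant hearts. With normexp on raw signal mrps11 and mrps33 had differences of -0.25 and -0.38 (limma adjusted p = 0.151 and 0.0785). An intensity trend in the variance model also removed both calls (limma adjusted p = 0.122 and 0.0671). The gene just outside the threshold was mrps25, with a difference of -0.93 and a limma adjusted p of 0.0551.

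Genes of proteins with a bacterial counterpart and genes of proteins specific to mitochondria were both shifted downward. Symbols numbered up to 36 in the large and 21 in the small subunit were classed as having a bacterial counterpart. The genes mrps24 and mrps28 were added by the unified nomenclature. All others, mrps18a and mrps18b among them, were classed by number alone. Of the 40 genes in this class, 9 were called lower, or 22.5%, with a median difference of -0.72. Of the 25 mitochondria-specific genes, 9 were called lower, with a median of -0.88. All 40 genes of the first class had a difference below 0, and 23 of the 25 in the second. The difference between these classes was not tested, and their ranges, -1.29 to -0.07 and -1.55 to 0.10, overlapped. The range of the small subunit genes lay within that of the large subunit genes.

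**Figure D2:**
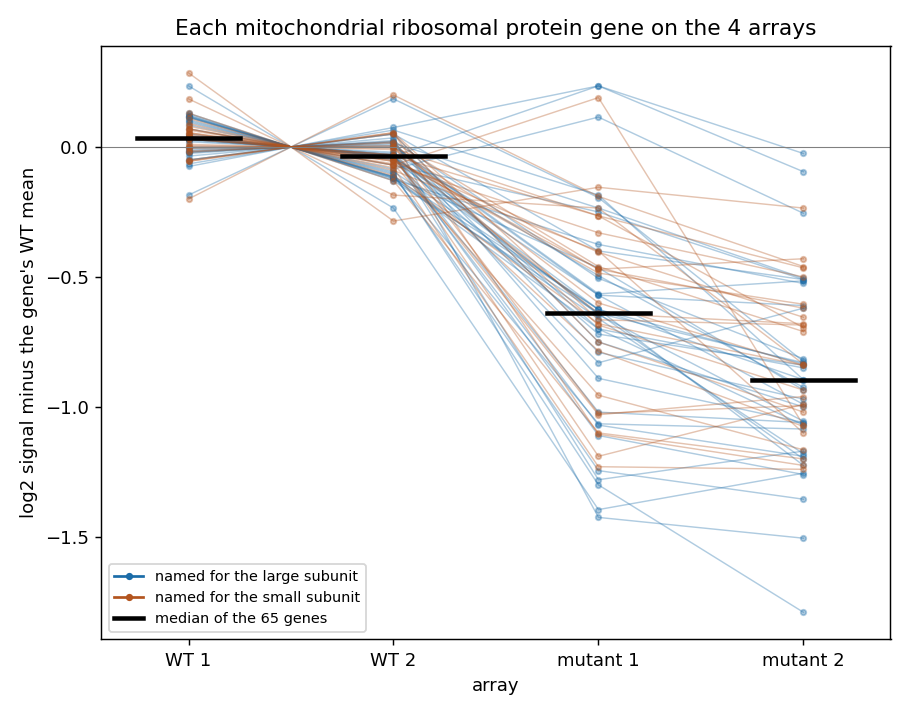
Log2 scaled signal of each of the 65 genes on the 4 arrays, as the difference from the gene's own WT mean, with lines joining the same gene and black bars at the median. Most lines drop from the WT arrays to both mutant arrays, and most drop again from mutant 1 to mutant 2.

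The 2 mutant arrays did not stand at the same level for these genes. Mutant 2 read below mutant 1 in 57 of the 65 genes, or 87.7%, with a median gap of -0.20, whereas over all tested genes it did so in 57.6% with a median gap of -0.07. WT 2 read below WT 1 in 45 of the 65 genes, with a median gap of -0.07. The gap between the mutant arrays was wide in mrps27, which encodes a helical repeat protein of the small subunit and was picked here for that spread. It read 8.81 and 8.67 in WT and 8.93 and 7.67 in mutant hearts. Mutant 1 was above and mutant 2 below both WT arrays, so the difference of -0.44 ± 0.48 (SE, n = 2 against 2; limma adjusted p = 0.583) gave no direction, and it was 0.19 without mutant 2. The same order of the mutant arrays appeared in all 70 genes of the cytosolic ribosome, and in 12 of the 13 tested cardiomyocyte markers. The WT arrays were ordered alike in these lists. WT 2 read below WT 1 in 65 of the 70 and 11 of the 13, against 6150 of all 11526 tested genes.

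A few genes did not share the shift. The highest differences were those of mrpl43 and mrpl53, mitochondria-specific proteins of the large subunit, at 0.10 ± 0.19 and 0.07 ± 0.21 (SE, n = 2 against 2). The values of mrpl43 were 7.88 and 7.81 in WT and 8.08 and 7.82 in mutant hearts. Those of mrpl53 were 9.93 and 10.08 in WT and 10.24 and 9.91 in mutant hearts. In both the groups overlapped, and the limma adjusted p was 0.763 and 0.854. The gene of Mrpl20, a protein with a bacterial counterpart, had the brightest probe of all, with 15.18 and 15.01 in WT and 15.21 and 14.84 in mutant hearts. Its groups overlapped and its difference of -0.07 ± 0.22 was smaller than the standard error, so no direction is given. Its value was 0.09, 0.06 and 0.15 with median scaling, quantile normalization and no scaling between arrays, of which the first and the last raise the values of all genes.

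Small differences were also found in mrps31 (-0.20), mrps6 (-0.33), mrps7 (-0.37), mrpl24 (-0.37) and mrpl23 (-0.38), none of which passed the test. Mrps6 and Mrps7 are counterparts of bacterial small subunit proteins, Mrpl23 and Mrpl24 of bacterial proteins at the exit of the peptide tunnel, and Mrps31 is specific to mitochondria. In mrps31 and mrps6 the groups overlapped. In mrps7, which read 12.67 and 12.60 in WT and 12.37 and 12.17 in mutant hearts, they did not. The genes with a small or no shift thus came from both subunits and from both classes of origin. A difference that did not pass the test does not show an unchanged level: the median standard error of the 65 genes was 0.19 on the log2 scale. With a stricter filter, which asked for a signal over the 60th percentile on every one of the 4 arrays, 37 of 62 genes were called lower, against 13.2% of the 7888 genes left.

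Several genes were measured by more than 1 probe. The 65 genes had 86 probes, of which 82 were tested, and 77 of these had a difference below 0. The 4 untested probes belonged to mrpl30, mrpl53, mrpl57 and mrps33, whose other probes were tested. Of the 16 genes with more than 1 tested probe, 12 had every probe below 0, and in 3 the probes differed in sign, or 18.8%. Over all 3993 genes with more than 1 tested probe the sign differed in 21%. The share among these genes was thus near that of the whole array.

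**Figure D3:**
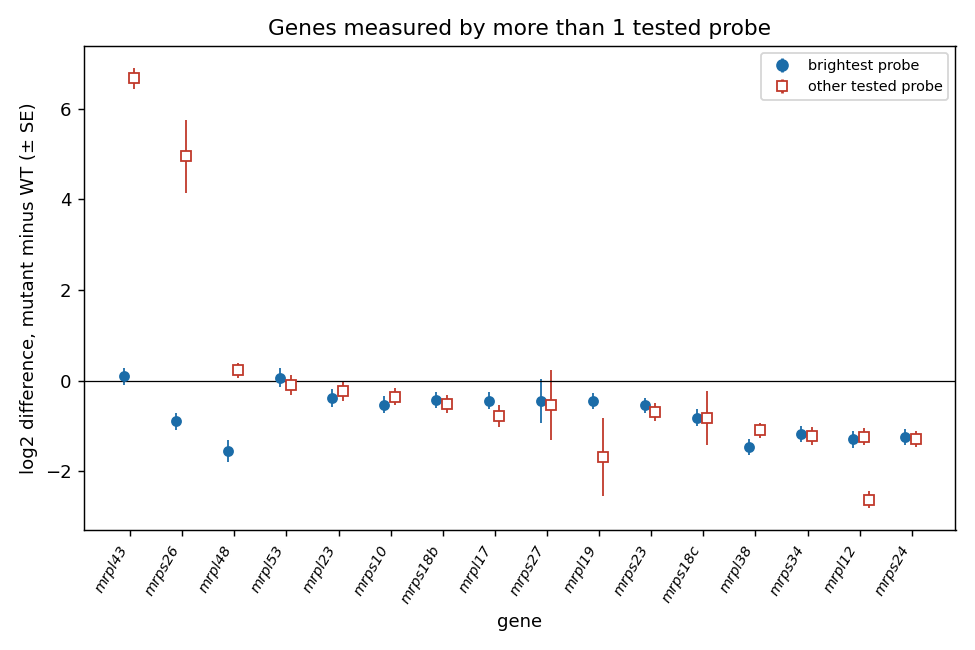
Log2 difference, mutant minus WT, with its standard error for the 16 genes with more than 1 tested probe; filled circles are the brightest probe and open squares the other probes. Most pairs lie close together below 0, while second probes of mrpl43 and mrps26 lie at 6.67 and 4.95.

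The disagreement was larger in mrpl43 and mrps26. The second probe of mrpl43 read 0.95 and 0.56 on the WT arrays, not well above background, and 7.54 and 7.32 on the mutant arrays. It was at least 21.7-fold higher in mutants (fitted difference 6.67 ± 0.23; limma adjusted p = 0.0072), although the brighter probe of the same gene differed by 0.10. Such a bound sets the mutant mean against the lowest signal counted as well above background on each WT array. The second probe of mrps26, another mitochondria-specific small subunit gene, read 4.05 and 1.80 in WT and 7.83 and 7.91 in mutant hearts, and 1 WT array was not well above background. Its fitted difference was 4.95 ± 0.81 (SE, n = 2 against 2; limma adjusted p = 0.0339), a size that rests in part on the WT value at background, while the brighter probe gave -0.89 ± 0.19 with a limma adjusted p of 0.058. A spread of more than 4 log2 units between the probes of a gene, a threshold set after these values were seen, occurred in 2 of the 16 genes and in 19 of the 3993 genes, or 0.476%.

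As in mrps26, the probes of mrpl48 and mrpl53 differed in sign, with a smaller gap than in mrpl43 and mrps26. Both probes of mrpl43 lay above 0. In mrpl48 the gap was still wide, since its brighter probe had a difference of -1.55. The dimmer probe of mrpl48 read 6.24 and 6.13 in WT and 6.44 and 6.39 in mutant hearts, a difference of 0.23 ± 0.17 (SE, n = 2 against 2; limma adjusted p = 0.42). The call of mrpl48 thus rests on its brighter probe. The second tested probe of mrpl53 gave -0.09 ± 0.22, within a standard error of the first. Where a gene was represented by the mean of its tested probes in place of the brightest, 17 of the 65 genes were called lower and 2, mrpl43 and mrps26, were called higher.

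Other genes of the mitochondrial translation apparatus were mostly below 0 as well, and most of them, like most mitochondrial ribosomal protein genes, were not called. The mitochondrial aminoacyl-tRNA synthetases and amidotransferase subunits, which load amino acids onto the organelle's transfer RNAs, had 12 of 20 listed genes on the array. All 12 differences were below 0, with a median of -0.73, and 3 were called lower and 0 higher, or 25% called lower against 9.03% of all tested genes. The arginine enzyme gene rars2 had a difference of -1.12, the proline enzyme gene pars2 -1.02 and the phenylalanine enzyme gene fars2 -0.85, with limma adjusted p of 0.0351, 0.036 and 0.0474. In all 12 both mutant arrays were below both WT arrays, against 35.2% of all tested genes. The 3 calls became 1 with median scaling or no scaling between arrays and 0 with no filter. They became 7 of 12 with an intensity trend in the variance model, 7 of 12 with normexp on raw signal and 7 of 10 with the stricter filter. In those 3 fits 13.8%, 14.0% and 13.2% of all genes were called lower.

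Translation factors and the factors that process or assemble mitochondrial RNA and ribosomes had 31 of 48 listed genes tested. Of these, 4 were called lower and 0 higher, with 30 below 0 and a median of -0.67. The share called lower, 12.9%, was near the 9.03% of all tested genes, and 0 were called with no filter. More were called with an intensity trend, normexp on raw signal and the stricter filter: 13 of 31, 16 of 31 and 13 of 27. The shares of all genes called lower were 13.8%, 14.0% and 13.2% there. In 28 of the 31 both mutant arrays lay below both WT arrays, against 35.2% of all tested genes. The gene of Tfb2m, a transcription initiation factor of mitochondrial DNA, read 9.77 and 9.68 in WT and 8.33 and 8.48 in mutant hearts, 2.5-fold lower (limma adjusted p = 0.0233). Chchd1 and Ptcd3 are themselves small subunit components whose symbols do not start with mrps, and their genes had differences of -1.22 and -1.06 (limma adjusted p = 0.0357 and 0.0346). The fourth was mterf4, which in mammals acts with an RNA methyltransferase in ribosome assembly, at -1.02 (limma adjusted p = 0.0437). A further small subunit component, dap3, had -0.64 (limma adjusted p = 0.0913), and the elongation factor gene tufm -0.90 (limma adjusted p = 0.0539). Both dap3 and tufm were picked after their values were seen, as were the following genes of this list with smaller differences. The genes aurkaip1, gfm2, mtif2 and tsfm had -0.38, -0.19, -0.18 and -0.04, and mrm1 lay above 0 at 0.27. None of these was called, and the groups overlapped in mtif2, tsfm and mrm1.

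The subunits of the respiratory chain and ATP synthase encoded in the nucleus, which join the products of the mitoribosome, gave 14 genes called lower and 0 higher among 73, with a median of -0.78. The share called lower was 19.2%, against 9.03% of all tested genes, and over all tested genes 17.1% were called in either direction. The differences ran from -2.99 to 2.29, and 71 of the 73 were below 0. Both mutant arrays lay below both WT arrays in 68 genes and above in 1, against 35.2% and 32.6% of all tested genes. The downward shift was thus shared with the mitochondrial ribosomal protein genes. With no filter 4 of 75 genes were called lower, against 4.21% of all genes. A term for the sample number left 3 of 73, against 4.12% of all genes. An intensity trend, normexp on raw signal and the stricter filter gave 43 of 73, 46 of 73 and 38 of 69. In those 3 fits 13.8%, 14.0% and 13.2% of all genes were called lower. The 4 cytochrome c oxidase genes with the lowest values are named: cox5b2, cox4i1l, cox6a2 and cox4i2 had differences of -2.99, -2.84, -2.53 and -1.54, with limma adjusted p of 0.00962, 0.0103, 0.0238 and 0.0237. No mitochondrial ribosomal protein gene reached a difference beyond -1.55 on its brightest probe. When any single array was left out, the calls of the synthetases, translation factors and mitochondrial ribosomal protein genes were lost. So were most or all calls of the respiratory list and of all tested genes.

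The proteins of the cytosolic ribosome were measured by 70 genes and served as the comparison for ribosomal proteins as such. Of these, 0 were called by limma in either direction, and 1 had an unadjusted p under 0.05. That gene was rps27.2, at -0.89 ± 0.30 (SE, n = 2 against 2; limma adjusted p = 0.134), and the next smallest p was that of rpl37, at -0.50 ± 0.23 (limma adjusted p = 0.217). The median of the 70 genes was -0.09 with an interquartile range of -0.17 to -0.03, and it turned to 0.07, 0.04 and 0.13 with median scaling, quantile normalization and no scaling between arrays. Leaving out an array moved it to 0.04 without WT 1, -0.24 without WT 2, -0.34 without mutant 1 and 0.16 without mutant 2, with 0 genes called each time. The mitochondrial ribosomal protein genes had medians of -0.59, -0.75 and -0.53 under those 3 scalings. The groups overlapped in 63 of the 70 cytosolic genes and in 6 of the 65 mitochondrial ones, against 3710 of all 11526 tested genes. Overlap also depends on the spread within a group, which was wider in the cytosolic genes. Their median gap between the mutant arrays was -0.49, against -0.20 in the mitochondrial ones, and their median standard error 0.27 against 0.19. They were also brighter, with a median of 14.92 against 10.65 on WT 1.

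**Figure D4:**
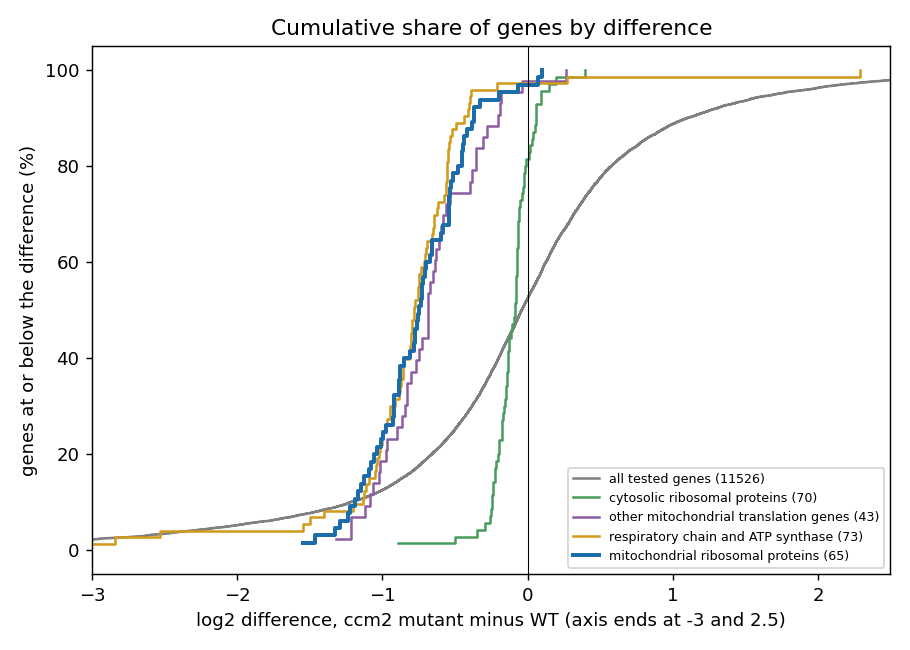
Cumulative share of genes by log2 difference, mutant minus WT, for all 11526 tested genes, the 65 mitochondrial ribosomal protein genes and 3 comparison groups; the synthetases and translation factors are drawn together. The mitochondrial groups cross the middle of the axis of shares near -0.7 to -0.8, and the cytosolic ribosomal proteins and all genes near 0.

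Markers of several cell types moved between the groups together with the mitochondrial ribosomal protein genes. In bulk tissue, fewer cells of a type and less RNA per cell cannot be told apart. The summed scaled signal of the cardiomyocyte markers was 307000 and 280000 in WT and 294000 and 222000 in mutant hearts, so the groups overlapped, and 1 of 13 was called lower. That is 7.69% of these markers, near the 9.03% called lower over all tested genes. Over all tested genes 8.1% were called higher. Red blood cell markers summed to 105000 and 92400 in WT and to 16200 and 12800 in mutant hearts, with 8 of 13 called lower and 1 higher. Leukocyte markers summed to 1250 and 1080 in WT and to 5520 on each mutant array, with 10 of 11 called higher. Endothelial and endocardial markers summed to 33400 and 34600 in WT and to 68300 and 61500 in mutant hearts, with 6 of 13 called higher. Such sums weigh the brightest probes most. The median difference was -2.97 for red blood cell, 2.23 for leukocyte and 0.51 for endothelial and endocardial markers. The array medians of the endothelial and endocardial markers overlapped, at 10.75 and 10.94 in WT and 10.62 and 10.99 in mutant hearts.

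Nervous system, retina and lens markers, from tissues that a heart dissection should not hold, summed to 4980 and 11000 in WT and to 1710 and 1560 in mutant hearts, with 9 of 14 called lower and 1 higher. Their median difference was -2.21, and the share called lower was 64.3%, against 9.03% of all tested genes. The summed signals of these 4 other cell types thus did not overlap between the groups, while single markers did: 1 red blood cell, 1 leukocyte, 1 endothelial and 2 neural genes overlapped. The calls among these markers also rest on all 4 arrays. Without mutant 1 or mutant 2 they were all lost, as were all calls over all tested genes. Without WT 1 or WT 2 some red blood cell, leukocyte and neural calls remained and no endothelial call did, while most calls over all tested genes were lost. Endothelial genes called higher numbered 2 with no filter and 1 with a term for the sample number. In those fits 510 of 14434 and 399 of 11526 tested genes were called higher. No defining marker set was at 0 in either group: at least 11 of the 13 red blood cell, 9 of the 12 leukocyte, 13 of the 13 endothelial and 10 of the 16 neural markers on the array were well above background on every array. The part of these cell types in the lower level of the mitochondrial ribosomal protein genes was not tested.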

How the data were processed

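RNA from 2 WT and 2 ccm2 mutant heart samples was hybridised to 4 Cy3 arrays, grouped by their titles. The deposited intensity values, per the file headers, are background-subtracted processed signals made with Agilent Feature Extraction 10.5.1.1, with no scaling between arrays, since each column's 75th percentile matched its header. A deposited table of raw median intensity was used in 1 alternative, and the header statistics (other values) gave the counts of features well above background. The barcode cells of the 2 mutant blocks are exchanged in the header file; blocks were matched by name.

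Spots of 1 probe were averaged, and the array's 75th percentile was subtracted from its log2 signals before a common constant was added. Probes above the 40th percentile on at least 2 of the 4 arrays were kept, 26824 in all. Each was fitted in R 4.3.3 by limma 3.58.1, using lmFit and then eBayes with 2 residual and 1.97 prior degrees of freedom. The test was two-sided at 0.05, and p-values were adjusted by Benjamini-Hochberg over every tested probe; the procedure was tested on simulated data. A gene was represented by its brightest probe. The deposited tables used here hold no flags, so rank within the header's count decided which features were well above background. By the platform annotation, 21061 features had 1 symbol, 0 had several, and 22742 are unnamed here. Updating symbols changed 0 of the 65 members. With different builds in the array design and the reference annotation, no coordinates are given.

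The members and the comparison lists were chosen with earlier results of these data known. Text names follow a rule: ccm2; members called; the 12 lowest, 8 highest and 6 brightest members; members whose probes differ in sign or are untested; and up to 4 called genes of each comparison list, or the 2 smallest p where none was called. Further names are marked as such or only illustrate a range or a protein's place; all of these were picked after values were seen. Lists are described by counts and medians, with no test. Alternatives covered scaling, background, filters, variance model, probe choice, symbols, left-out arrays and a term for the sample number. No promoter or protein sequences are shown. Figures were drawn with matplotlib 3.10.9.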

Additional observations from a re-analysis of the deposited data

How the results depend on the processing

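In all 14 alternatives the median difference of the 65 genes stayed below 0, and 60 or more of the genes tested kept a difference below 0. It was -0.59 with median scaling and -0.53 with no scaling between arrays, where the median of all genes moved from -0.04 to 0.12 and 0.17, so the genes lay 0.71 log2 units below all genes in each. Those scalings called 1144 and 1295 genes higher and 809 and 770 lower, against 934 and 1041. The number called lower was less stable. It was 10 with no scaling, 42 with normexp on raw signal and 42 with an intensity trend in the variance model. The stricter filter gave 37 and no filter gave 1. In that order these were 15.4%, 64.6%, 64.6%, 59.7% and 1.54% of the member genes tested. The shares of all tested genes called lower were 6.68%, 14.0%, 13.8%, 13.2% and 4.21%. In either direction, 2065, 2970, 3014, 2038 and 1117 of all genes were called. With mean probes 2 genes were called higher, mrpl43 at 3.39 and mrps26, whose value turned to 2.03 (limma adjusted p = 0.0499). The cause of these moves was not tested.

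Deviations of same-numbered samples from their group means correlated at r = 0.071 over the tested probes. Whether the sample numbers pair the samples is not known, and a low correlation of this kind cannot decide it. With the replicate block 0 of the 65 genes and 874 of all genes were called, and the smallest adjusted p among the 65 was 0.0542. Leaving out 1 array gave 0 to 0 calls among the 65 genes and 0 to 567 over all genes, with 19 to 49 of the 65 at an unadjusted p under 0.05 and a median difference of -0.90 to -0.64. Fewer samples entered those fits. In them the lone sample is assumed to vary like the other group.

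Signs turned in 6 of the 65 genes over all alternatives. Besides mrps26 and mrps27, which was 0.19 without mutant 2, these were 4 genes near 0. The difference of mrpl20 was 0.09, 0.06 and 0.15 with median scaling, quantile normalization and no scaling, and -0.25 to 0.11 in the fits without an array. That of mrps31 was 0.02 with no scaling and -0.49 to 0.09 without an array. The difference of mrpl53 was -0.01 with mean probes and -0.10 to 0.23 without an array, and mrpl43 ran from -0.03 to 0.23 without an array. The 2 arrays per group limit the precision, and for mrps11 so does its signal near background.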

Other observations

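The proteins made by the mitoribosome itself are encoded in mitochondrial DNA, and 6 of its 13 protein-coding genes were tested; they were looked up after the values of the nuclear genes were seen. None was called by limma: 0 had an adjusted or an unadjusted p under 0.05, and the smallest adjusted p was 0.577. The gene of cytochrome c oxidase subunit 1, COX1, read 14.57 and 14.64 in WT and 15.05 and 14.45 in mutant hearts, a difference of 0.15 ± 0.27 (SE, n = 2 against 2). The complex I subunit genes ND1, ND2, ND3, ND5 and ND6 had differences of -0.09, -0.08, -0.15, 0.15 and -0.35. The groups overlapped in all 6 genes. Mutant 2 read below mutant 1 in all 6, as it did in most mitochondrial ribosomal protein genes. The median was -0.09, and 0.07, 0.05 and 0.13 with median scaling, quantile normalization and no scaling between arrays, of which the first and the last raise the values of all genes. Without an array it ran from -0.38 to 0.21. Whether these transcripts differed from the nuclear genes of the mitoribosome was not tested.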
